A study of Arabidopsis thaliana with 8 samples.

Results

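Shoots of the Arabidopsis thaliana arr1,10,12 triple mutant were compared with wild-type shoots after 1 h in medium with the solvent DMSO and no added cytokinin. The comparison rests on 4 of the 8 Affymetrix arrays of the series, chosen by genotype and treatment: 2 mutant arrays with DMSO and 2 wild-type arrays with DMSO. All seedlings were 14 days old and had been raised in continuous white light on sucrose-containing agar, before transfer to liquid medium and removal of the roots, although the tissue label reads seedling. The other 4 arrays, 2 of the mutant and 2 of wild type, came from seedlings given 10 µM benzyladenine (BA), a synthetic cytokinin, for the same 1 h, and are used here as separate samples of the same genotypes.

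Cytokinin is perceived by membrane histidine kinases, which pass a phosphate through carrier proteins to nuclear response regulators. ARR1, ARR10 and ARR12 belong to the type-B regulators, which bind DNA and switch on cytokinin-responsive genes, among them the type-A response regulators that dampen the pathway. Comparing the genotypes without added hormone asks which transcripts depend on the 3 regulators in seedlings that contain only their own cytokinin. The labels give the mutant as a combination of 3 genes without naming alleles, and they do not tell whether replicates were grown as separate cultures, so p-values measure the spread between these samples only.

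The deposited value of a probe set is a ratio, for most probe sets relative to that probe set's median over the 8 arrays, and values are called relative values below. They compare arrays and not genes. Mutant DMSO replicate 1 stood apart from the other arrays: the median quotient of its 5′ to 3′ control probe sets was 0.353, against 0.993 to 1.11 on the other 7 arrays, and its 25S ribosomal RNA control was at 197, against 3.48 on mutant DMSO replicate 2 and 0.666 to 1.44 on the other 6. The 2 mutant DMSO arrays differed more than 2-fold in 17.9% of probe sets, whereas the wild-type DMSO arrays did so in 0.747%. The names of the array files carry 3 prefixes: all 4 wild-type arrays share one, mutant DMSO replicate 2 shares another with both BA-treated mutant arrays, and mutant DMSO replicate 1 has its own. Genotype and prefix cannot be told apart.

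Values are therefore given for each array. A probe set is called separate where both mutant arrays lie above, or both below, both wild-type arrays, and its gap is the log2 distance between the nearest mutant and wild-type arrays. Both mutant arrays lay above wild type in 6693 of 22746 probe sets (29.4%) and below it in 3139 (13.8%). A gap of at least 1 log2 unit, a 2-fold distance even between the nearest arrays, was reached by 96 probe sets that were higher in the mutant (0.422%) and by 135 that were lower (0.594%). The values closest to this limit were gaps of 1.002 and 0.9986. Of those probe sets, 51 and 64 carry the name of a single gene.

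The targeted genes themselves were not followed, because ARR1, ARR10 and ARR12 have no named probe set here. Few cytokinin output genes could be followed either, with 2 of 10 type-A response regulators measured. RR16, one of them, was at 0.618 and 0.647 in the mutant and at 0.926 and 0.783 in wild type, so both mutant arrays were below both wild-type arrays by a small margin (log2 difference -0.43 ± 0.17, SE; limma adjusted p = 0.352 with 8 arrays). ARR15, the other, was at 0.618 and 0.507 in the mutant and 0.635 and 0.613 in wild type, and the arrays overlapped (log2 difference -0.16 ± 0.44).

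With BA the same 2 genes were separated much further. RR16 was at 0.609 and 0.748 in the BA-treated mutant, against 3.93 and 3.85 in BA-treated wild type. UGT76C2, which conjugates glucose to cytokinins, was at 0.973 and 0.498 in the DMSO-treated mutant and 1.33 and 1.03 in DMSO-treated wild type (log2 difference -0.75 ± 0.42, adjusted p = 0.464, limma with 8 arrays). Its relative UGT76C1 was at 1.06 and 1.03 in the mutant and 1.05 and 0.858 in wild type, with overlapping arrays. RR18 and RR19, type-B regulators that the mutant retains, overlapped as well: the log2 differences were 0.23 ± 0.28 for RR18 and -0.05 ± 0.22 for RR19.

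Across the whole array, limma with all 8 arrays passed 2 probe sets at an adjusted p under 0.05, both of them lower in the mutant (0.00879% of those tested) and neither with a named gene. Probe set 264374_at was at 0.146 and 0.184 in the mutant and at 2.03 and 1.78 in wild type, a log2 difference of -3.54 ± 0.17 (SE; limma adjusted p = 0.00925). It was as low in the BA-treated mutant, at 0.213 and 0.219, against 1.83 and 2.03 in BA-treated wild type. Probe set 253496_at was at 0.961 and 0.635 in the mutant and at 8.05 and 9.40 in wild type (log2 difference -3.48 ± 0.23, limma adjusted p = 0.0300). Here the 2 DMSO-treated wild-type arrays were far above all other arrays, since BA-treated wild type was at 1.04 and 1.19.

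No probe set passed as higher with 8 arrays, although 3068 had an unadjusted p under 0.05 in either direction. Without mutant DMSO replicate 1, limma passed 530 probe sets as higher (2.33%) and 431 as lower (1.89%), 4.22% together, but the mutant is then represented by a single array that is assumed to vary like the other groups. Retaining replicate 1 in place of replicate 2 gave 5279 calls, so the count depends on which mutant array stands for the genotype. Leaving out a further array from the 7 gave 48 calls without wild-type DMSO replicate 1, 13 without wild-type DMSO replicate 2, 533 without either BA-treated wild-type array and 1803 without either BA-treated mutant array. From the 8 arrays, leaving out any one but the mutant DMSO arrays gave 0. After quantile normalization, limma passed 12 probe sets as higher and 93 as lower with 8 arrays, and 211 and 404 with 7. A gene's log2 difference with SE comes below from all 8 arrays except where 7 are stated, and an adjusted p is that of limma over all probe sets, with the number of arrays named.

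The 15 named genes with the widest gap on the low side were divided into groups after their values had been seen. For 10 of the 15, all 4 mutant arrays lay below all 4 wild-type arrays, whether DMSO or BA had been given. AT2G16005, which encodes a protein of the MD-2-related lipid-recognition family, was at 0.324 and 0.152 in the mutant and 1.68 and 2.21 in wild type (log2 difference -3.12 ± 0.36, limma adjusted p = 0.0861 with 8 arrays and 0.00263 with 7). With BA it was at 0.259 and 0.245 in the mutant and 1.79 and 2.34 in wild type. The values of this gene were thus nearly the same under both treatments in each genotype.

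TPS-CIN, a monoterpene synthase that makes cineole, was at 0.394 and 0.278 in the mutant and 1.74 and 3.29 in wild type (log2 difference -2.85 ± 0.35, adjusted p = 0.0861 with 8 arrays and 0.0145 with 7, limma). With BA the values were 0.341 and 0.286 in the mutant and 1.61 and 2.23 in wild type. AT1G55240 was at 0.399 and 0.323 in the mutant and 1.55 and 1.88 in wild type (log2 difference -2.25 ± 0.22, adjusted p = 0.0822 and 0.00933 with 8 and 7 arrays). In both genes the 2 mutant arrays, replicate 1 included, were within 2-fold of each other.

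STR18, a sulfurtransferase of the rhodanese family, was at 0.397 and 0.570 in the mutant and 1.99 and 1.73 in wild type (log2 difference -1.96 ± 0.22, limma adjusted p = 0.0861 with 8 arrays and 0.0123 with 7). AT5G50915, a bHLH transcription factor, was at 0.308 and 0.660 in the mutant and 1.80 and 2.34 in wild type (log2 difference -2.18 ± 0.37). AT4G38080, a hydroxyproline-rich glycoprotein, was at 0.594 and 0.257 in the mutant and 1.93 and 1.62 in wild type (log2 difference -2.18 ± 0.40). In the 7-array fit both passed, with adjusted p = 0.0205 for AT5G50915 and 0.00684 for AT4G38080, against 0.134 and 0.136 with 8.

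AT2G48130, a GPI-anchored lipid transfer protein, was at 0.366 and 0.356 in the mutant and 2.04 and 1.13 in wild type, and did not pass (limma adjusted p = 0.174 with 8 arrays and 0.0871 with 7). AT3G25930 was at 0.482 and 0.560 in the mutant and 2.21 and 3.41 in wild type (adjusted p = 0.0861 with 8 arrays and 0.0169 with 7). Its gap under DMSO was 1.98 log2 units and narrowed to 0.92 under BA. AT4G15660 and AT4G26010, the other 2 genes of this group, are described with their families below.

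For 4 of the 15 low genes, the 2 DMSO-treated wild-type arrays lay above all 6 others, and under BA both mutant arrays were above both wild-type arrays. AT2G27420, the gene of a papain-type protease, was at 0.687 and 0.966 in the mutant and 5.35 and 7.25 in wild type (log2 difference -2.93 ± 0.27, adjusted p = 0.0822 with 8 arrays and 0.00933 with 7, limma). With BA the order turned round, with 1.45 and 1.03 in the mutant and 0.568 and 0.498 in wild type. AT2G15020 behaved alike, at 0.273 and 0.894 in the mutant and 3.08 and 3.71 in wild type with DMSO, and at 1.30 and 1.11 in the mutant and 0.345 and 0.212 in wild type with BA (DMSO difference, limma adjusted p = 0.152 with 8 arrays and 0.0240 with 7).

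AT1G13650 was at 0.901 and 0.832 in the mutant and 3.27 and 3.81 in wild type (log2 difference -2.03 ± 0.18, limma adjusted p = 0.0822 with 8 arrays and 0.00933 with 7). All 4 of its BA arrays lay between 0.823 and 1.22, the mutant ones barely above wild type. AT5G02180, a member of an amino acid transporter family, was at 0.472 and 1.03 in the mutant and 3.15 and 3.29 in wild type. Its adjusted p was 0.136 with 8 arrays and 0.0310 with 7 (limma).

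Of the 5 named genes closest to passing with 8 arrays, 2 were not among the 15. AT3G22210 was at 0.709 and 0.691 in the mutant and 1.83 and 2.00 in wild type (log2 difference -1.45 ± 0.13, limma adjusted p = 0.0822 and 0.0107 with 8 and 7 arrays). JAL33, a jacalin-related lectin, was at 0.589 and 0.579 in the mutant and 1.39 and 1.61 in wild type (log2 difference -1.36 ± 0.14, adjusted p = 0.0861 and 0.0145). Replicates nearly coincided in both, and JAL33 kept the difference under BA with 0.607 and 0.635 in the mutant and 1.36 and 1.41 in wild type.

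**Figure D1:**
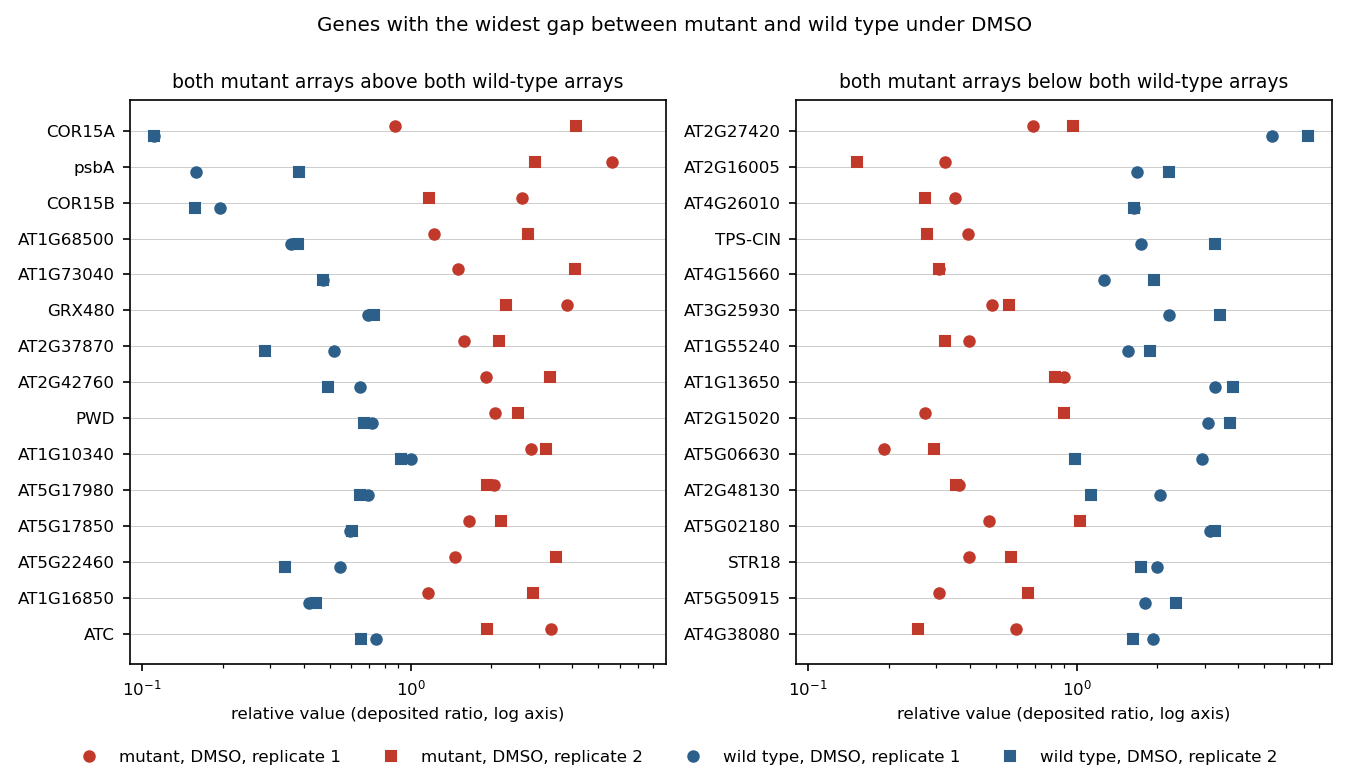
Relative value (horizontal log axis) on each of the 4 DMSO arrays for the 15 named genes with the widest gap in each direction, mutant in red above wild type in blue on each line. The gaps run from 1.38 to 2.97 log2 units on the high side (left panel) and from 1.44 to 2.47 on the low side (right panel), and the genes were chosen for these gaps.

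On the high side, the widest gaps belonged to COR15A, psbA and COR15B. COR15A and COR15B encode related chloroplast proteins known from cold and abscisic acid responses. COR15A was at 0.872 and 4.12 in the mutant and 0.111 and 0.111 in wild type, a log2 difference of 4.09 ± 0.75 (limma adjusted p = 0.136 with 8 arrays and 0.00847 with 7). COR15B was at 2.60 and 1.17 in the mutant and 0.195 and 0.157 in wild type (log2 difference 3.31 ± 0.41, adjusted p = 0.0861 and 0.0111). In both genes the low values were those of DMSO-treated wild type. BA-treated wild type was at 1.04 and 0.963 for COR15A and at 1.01 and 0.985 for COR15B.

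The plastid gene psbA, which encodes the D1 protein of photosystem II, was at 5.64 and 2.90 in the mutant and 0.159 and 0.385 in wild type (log2 difference 4.03 ± 0.56, limma adjusted p = 0.112 with 8 arrays and 0.0266 with 7). With BA the genotypes overlapped, at 1.44 and 0.712 in the mutant and 0.831 and 1.17 in wild type. The 2 DMSO groups thus lay on opposite sides of the BA arrays. GRX480, a CC-type glutaredoxin known as salicylate-inducible, was at 3.83 and 2.27 in the mutant and 0.696 and 0.728 in wild type (log2 difference 2.05 ± 0.26, adjusted p = 0.0962 and 0.0125). Here the DMSO-treated mutant was above all other arrays, and with BA the mutant was the lower genotype, at 0.648 and 0.758, against 1.24 and 1.5 in wild type.

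AT1G10340, which encodes an ankyrin-repeat protein, had closely matching replicates: 2.81 and 3.19 in the mutant and 1.00 and 0.922 in wild type (log2 difference 1.64 ± 0.20, limma adjusted p = 0.0861 with 8 arrays and 0.0159 with 7). AT2G42760 was at 1.91 and 3.31 in the mutant and 0.650 and 0.493 in wild type (adjusted p = 0.134 and 0.0164). Both genes were highest in the DMSO-treated mutant, as GRX480 was, and neither was separate between the genotypes under BA. AT5G17850, a cation exchanger family member, was at 1.65 and 2.17 in the mutant and 0.597 and 0.606 in wild type (adjusted p = 0.0962 and 0.0131), and it too was not separate under BA.

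For 8 of the 15 high genes, all 4 mutant arrays lay above all 4 wild-type arrays. AT1G73040, a jacalin-type lectin, was at 1.5 and 4.09 in the mutant and 0.471 and 0.471 in wild type (log2 difference 2.39 ± 0.50, limma adjusted p = 0.167 with 8 arrays and 0.0122 with 7). With BA it was at 6.09 and 3.18 in the mutant and 0.433 and 0.505 in wild type. AT5G17980, which encodes a C2-domain protein, was at 2.05 and 1.92 in the mutant and 0.694 and 0.646 in wild type (log2 difference 1.57 ± 0.18, adjusted p = 0.0861 and 0.0164). Its mutant replicates were the closest pair among the 15.

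ATC, a relative of the floral repressor TFL1, was at 3.34 and 1.93 in the mutant and 0.741 and 0.656 in wild type (log2 difference 1.86 ± 0.29, limma adjusted p = 0.128 with 8 arrays and 0.0234 with 7). The gene annotated as PWD, at locus AT4G24450, was at 2.07 and 2.51 in the mutant and 0.716 and 0.670 in wild type. It did not pass in either fit (limma adjusted p = 0.196 with 8 arrays). AT1G68500 was at 1.22 and 2.73 in the mutant and 0.360 and 0.380 in wild type (adjusted p = 0.169 and 0.0207). In these 3 genes the replicates of wild type differed less than those of the mutant.

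AT1G16850 was at 1.16 and 2.85 in the mutant and 0.418 and 0.444 in wild type (limma adjusted p = 0.234 with 8 arrays and 0.0344 with 7). AT5G22460, an alpha/beta hydrolase, was at 1.46 and 3.48 in the mutant and 0.545 and 0.341 in wild type, and AT2G37870, a lipid transfer family protein, at 1.58 and 2.14 in the mutant and 0.517 and 0.288 in wild type. Neither of the last 2 passed (limma adjusted p = 0.235 with 8 arrays and 0.0514 with 7 for AT5G22460, and 0.318 and 0.228 for AT2G37870). Of the 15 genes on each side, 0 passed with 8 arrays. After quantile normalization of the 8 arrays, 3 of the high and 10 of the low genes passed, and all 30 stayed separate on the same side. The 30 were chosen for wide gaps on the same DMSO arrays. The counts after quantile normalization are therefore partly fixed by the choice, and nothing is read from them.

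Gene lists were read against the shares of all probe sets, 29.4% above and 13.8% below wild type, and a median log2 difference of 0.10 over all probe sets. Of 13355 genes with a named probe set, 4186 were above and 1647 below. Probe sets with a median more than 0.005 below 1 over the arrays are called dim. Without them, 3660 of the 6693 higher and 2839 of the 3139 lower probe sets remained. Most of the surplus of higher ones was thus dim. The share of dim probe sets in each list was not tested, so a list's distance from 29.4% and 13.8% is descriptive only. All root and root-hair markers that could be measured were lower on both mutant arrays. Only 4 of 27 listed markers have a named probe set. In all 4, both mutant arrays lay below both wild-type arrays under DMSO and BA (13.8% and 18.4% of all probe sets). AT4G26010, a class III peroxidase of root hairs, was at 0.353 and 0.272 in the mutant and 1.64 and 1.64 in wild type (log2 difference -2.40 ± 0.56, limma adjusted p = 0.193 with 8 arrays and 0.0871 with 7). EXPA7, an expansin of root hairs, was at 0.781 and 0.422 in the mutant and 1.16 and 1.40 in wild type, and EXPA18, its close relative, at 0.731 and 0.478 in the mutant and 1.23 and 1.30 in wild type.

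The peroxidase gene AT3G49960 completed the list, at 0.826 and 0.368 in the mutant and 1.02 and 2.00 in wild type. None of the 4 passed in either fit. Their summed relative value was 2.69 and 1.54 on the DMSO-treated mutant arrays and 5.05 and 6.34 on the wild-type arrays. With BA it was 3.65 and 1.41 in the mutant and 4.89 and 7.74 in wild type. The protocol discards the roots, relative values do not show how much root RNA a sample held, and a smaller share of root tissue cannot be told apart from less RNA per cell. The part of root markers in the other low genes was not tested.

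Class III peroxidases as a family, secreted enzymes that oxidise wall phenolics, had 16 of 54 named genes (29.6%) above wild type on both mutant arrays, close to the share of all probe sets, and 14 (25.9%) below, against 13.8% of all. The median log2 difference was 0.05. A gap of at least 1 was reached by 4 of the 54 as lower and 0 as higher, against 0.594% and 0.422% of all probe sets. Besides AT4G26010, these were AT5G64120, AT5G17820 and AT5G15180. AT5G17820 was at 0.604 and 0.319 in the mutant and 1.39 and 1.84 in wild type and passed with 7 arrays (limma adjusted p = 0.0169, against 0.155 with 8). AT5G64120 was at 0.404 and 0.545 in the mutant and 1.34 and 1.40 in wild type (adjusted p = 0.255 with 8 arrays and 0.228 with 7, limma), and it was equally separate with BA, at 0.242 and 0.661 in the mutant and 1.64 and 2.00 in wild type.

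Extensins, the hydroxyproline-rich structural proteins of the cell wall, had 7 of 11 named genes below wild type and 0 above, with a median log2 difference of -1.15. AT5G06630 was at 0.192 and 0.295 in the mutant and 2.93 and 0.990 in wild type (log2 difference -2.84 ± 0.68, limma adjusted p = 0.203 with 8 arrays and 0.144 with 7). AT3G54580 was at 0.253 and 0.347 in the mutant and 3.12 and 0.885 in wild type, and AT4G08410 at 0.193 and 0.385 in the mutant and 1.93 and 0.886 in wild type. HRGP1 was at 0.122 and 0.425 in the mutant and 2.12 and 0.794 in wild type.

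In each of these 4 genes wild-type replicate 1 was more than 2-fold above replicate 2, and none passed. With BA the wild-type arrays differed in the same genes, AT5G06630 being at 0.823 and 2.53 there. Under BA, 2 of the 11 extensins were above and 0 below wild type, against 41.1% and 18.4% of all probe sets. Extensin repeats are alike in sequence, and the probe sets of AT5G06630, AT4G08410 and HRGP1 carry the suffix by which the array maker marks possible cross-hybridisation. The members are therefore not independent measurements.

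Of 17 CC-type glutaredoxins, small redox proteins, 3 were above and 10 below wild type under BA (41.1% and 18.4% of all probe sets). Under DMSO they split, with 5 above and 5 below wild type on both mutant arrays. AT4G15660 was at 0.307 and 0.306 in the mutant and 1.27 and 1.94 in wild type (log2 difference -2.36 ± 0.41, limma adjusted p = 0.134 with 8 arrays and 0.0498 with 7). AT4G15680, a close relative from the same gene cluster, was at 0.477 and 0.451 in the mutant and 1.16 and 1.11 in wild type, and did not pass (adjusted p = 0.164 and 0.0754). AT3G62950 was at 0.655 and 0.773 in the mutant and 1.19 and 2.16 in wild type (adjusted p = 0.218 and 0.160). GRX480 was the only member with a gap of at least 1 on the high side.

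Dirigent proteins guide the coupling of lignan precursors, and 3 of 12 named genes were below wild type and 1 above. AT4G11190 was at 0.338 and 0.549 in the mutant and 1.32 and 1.82 in wild type (log2 difference -1.85 ± 0.38, limma adjusted p = 0.163 with 8 arrays and 0.0934 with 7). AT4G11210 was at 0.606 and 0.421 in the mutant and 1.22 and 1.31 in wild type and passed with 7 arrays (adjusted p = 0.0274, against 0.158 with 8). Both were further apart with BA, where AT4G11190 stood at 0.676 and 0.378 in the mutant and 5.65 and 8.04 in wild type.

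SABATH methyltransferases, which methylate small acids such as jasmonate, had 5 of 17 genes below and 3 above wild type. AT5G38020 was at 0.620 and 0.362 in the mutant and 1.38 and 1.61 in wild type, and AT5G37990 at 0.656 and 0.0869 in the mutant and 1.75 and 2.44 in wild type. Both passed with 7 arrays (limma adjusted p = 0.0282 for AT5G38020 and 0.0307 for AT5G37990), and neither with 8 (0.179 and 0.298). JMT, the jasmonate methyltransferase, was at 0.772 and 0.589 in the mutant and 0.881 and 1.14 in wild type, and did not pass (adjusted p = 0.310 and 0.0954). Glutathione transferases, the detoxifying enzymes, had 5 of 13 genes below and 0 above wild type, and none of the 5 reached a gap of 1.

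The cold, drought and abscisic acid list was mostly higher: 8 of 10 named genes were above wild type on both mutant arrays and 2 below, with a median log2 difference of 0.87. Besides COR15A and COR15B, LTI30, a dehydrin, was at 1.36 and 1.82 in the mutant and 0.565 and 0.695 in wild type (log2 difference 1.33 ± 0.26, limma adjusted p = 0.150 with 8 arrays and 0.0321 with 7). COR47, another dehydrin, was at 0.845 and 1.98 in the mutant and 0.668 and 0.546 in wild type (adjusted p = 0.322 and 0.0182). LEA4-5, a late embryogenesis abundant protein, was at 1.06 and 1.56 in the mutant and 0.697 and 0.586 in wild type and did not pass.

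M17, a seed maturation gene, went the other way, at 2.34 and 0.398 in the mutant and 3.49 and 3.87 in wild type (limma adjusted p = 0.400 with 8 arrays and 0.0371 with 7). LEA18, the other low member, was at 0.892 and 1.00 in the mutant and 1.53 and 1.11 in wild type. With BA, 5 of the 10 were above wild type and 2 below, against 41.1% and 18.4% of all probe sets. The median log2 difference under BA was 0.24, against 0.12 over all probe sets. COR27 lay on opposite sides under the 2 treatments: it was at 1.70 and 1.12 in the mutant and 0.876 and 0.794 in wild type with DMSO, and at 0.541 and 0.741 in the mutant and 1.95 and 2.56 in wild type with BA.

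Plastid-encoded genes gave different pictures on the 2 mutant arrays. Of 69 with a named probe set, replicate 2 was above both wild-type arrays in 33 and below in 3, whereas replicate 1 was above in 18 and below in 26. Both were above in 11 and both below in 2. The median relative value was 0.766 and 1.16 on the mutant arrays and 0.628 and 1.05 on the wild-type arrays, so the wild-type replicates differed too. Only psbA and rbcL, which encodes the large subunit of Rubisco, had a gap of at least 1, and rbcL was at 2.19 and 2.01 in the mutant and 0.306 and 0.998 in wild type (log2 difference 1.92 ± 0.58, adjusted p = 0.267 and 0.212 with 8 and 7 arrays, limma).

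Nuclear genes of light harvesting and chlorophyll synthesis, which mark green tissue, had 1 of 14 above and 4 below wild type (7.14% and 28.6%, against 29.4% and 13.8% of all probe sets) and a median log2 difference of -0.19. Replicate 1 was below both wild-type arrays in 10 of the 14 and replicate 2 in 7. UDP-glycosyltransferases had 18 of 47 genes above and 4 below wild type. Replicate 1 was above both wild-type arrays in 39 of the 47, against 21 for replicate 2. UGT85A2 was at 1.24 and 2.11 in the mutant and 0.709 and 0.656 in wild type (limma adjusted p = 0.241 with 8 arrays and 0.0429 with 7). UGT85A4 was at 1.81 and 1.39 in the mutant and 0.816 and 0.709 in wild type and did not pass.

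Among early auxin genes, 6 of 11 were above and 2 below wild type. GH3.3, an auxin-conjugating enzyme, was at 1.09 and 9.03 in the mutant and 0.867 and 0.907 in wild type, so its size rested on replicate 2 (7-array limma adjusted p = 0.0521). In the expansin and xyloglucan endotransglucosylase list, 9 of 27 were above and 4 below. EXLB1, an expansin-like protein, was at 1.63 and 1.79 in the mutant and 0.509 and 0.637 in wild type (adjusted p = 0.240 with 8 arrays and 0.143 with 7). Calmodulin-like calcium sensors had 1 of 7 named genes above and 1 below wild type, with a median log2 difference of -0.05. CML37 was at 1.2 and 2.96 in the mutant and 0.608 and 0.669 in wild type (limma adjusted p = 0.213 with 8 arrays).

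Defensins and thionins had 8 of 17 genes above and 4 below wild type. THI2.1, a thionin, was at 1.25 and 2.15 in the mutant and 0.612 and 0.749 in wild type (limma adjusted p = 0.193 with 8 arrays and 0.0187 with 7). PDF1.2, the jasmonate- and ethylene-responsive defensin, was at 0.954 and 0.0453 in the mutant and 1.79 and 1.61 in wild type (limma adjusted p = 0.406 with 8 arrays and 0.0257 with 7). Both PDF1.2 values were below wild type, but replicate 2 was more than 10-fold below replicate 1.

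Of the remaining lists, the anthocyanin and flavonoid genes had 4 of 8 above and 1 below wild type, the cytochrome P450 genes 8 of 22 above and 4 below, the SWEET sugar transporters 3 of 15 above and 2 below, and the bZIP factors 3 of 7 above and 1 below. UF3GT, a glycosyltransferase of anthocyanins, was at 1.59 and 1.35 in the mutant and 0.479 and 0.646 in wild type, and SWEET2 at 0.344 and 1.22 in the mutant and 2.76 and 2.19 in wild type. Neither passed in either fit. Of 6 WRKY factors, 1 was above and 0 below wild type: WRKY53, a factor known from leaf senescence, was at 1.12 and 1.72 in the mutant and 0.684 and 0.544 in wild type (limma adjusted p = 0.320 with 8 arrays and 0.147 with 7).

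**Figure D2:**
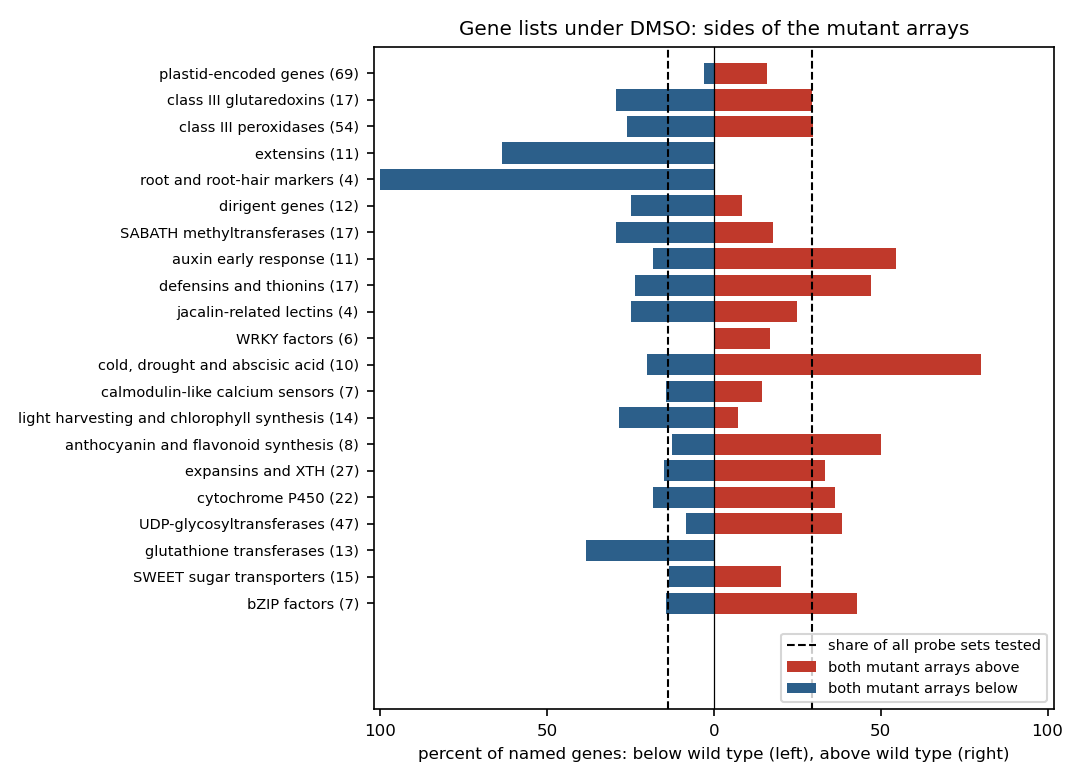
For each gene list with at least 4 named genes (number in brackets), the percent of genes in which both DMSO-treated mutant arrays lay above both wild-type arrays (red, right) or below them (blue, left), with dashed lines at the shares of all probe sets, 29.4% and 13.8%. Extensins (7 of 11) and root markers (4 of 4) extend furthest to the left, and the cold, drought and abscisic acid list (8 of 10) furthest to the right.

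How far the 2 mutant arrays bore the same difference was followed for all calls of the 7-array fit. Both arrays are set against the same 2 wild-type arrays, which by itself moves them to the same side. Replicate 1 lay beyond both wild-type arrays on the called side in 299 of the 530 higher probe sets (56.4%) and in 276 of the 431 lower ones (64.0%). Over all probe sets, replicate 1 was above both wild-type arrays in 52.9% and below both in 31.9%, whatever the side of replicate 2. With replicate 2 above both wild-type arrays, replicate 1 was above both in 6693 probe sets and below both in 2776. With replicate 2 below both, replicate 1 was below both in 3139 and above both in 2927. It lay on the opposite side in 175 higher and 122 lower calls, and over all probe sets the 2 mutant arrays lay on opposite sides of wild type in 25.1%. The 299 and 276 calls that replicate 1 shares are 1.31% and 1.21% of the probe sets tested, and stand for 158 and 149 named genes.

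HAT2, a homeodomain-leucine zipper factor known from auxin responses, was at 0.236 and 5.55 in the mutant and 0.809 and 0.598 in wild type. AT5G62280 was at 0.212 and 10.1 in the mutant and 0.924 and 1.08 in wild type. In both, replicate 1 was the lowest and replicate 2 the highest of the 4 DMSO arrays. EXLA2, an expansin-like gene, was at 0.761 and 6.09 in the mutant and 0.709 and 0.849 in wild type, with replicate 1 between the wild-type arrays. All 3 passed with 7 arrays (limma adjusted p = 0.0184 for HAT2, 0.00643 for AT5G62280 and 0.0203 for EXLA2), and their 8-array values were 0.813, 0.884 and 0.496.

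AT5G62280 was also high in the mutant under BA, at 3.95 and 6.50, against 0.897 and 0.879 in wild type. AT1G80130 was above wild type on both mutant arrays by very different amounts: it was at 1.09 and 16.6 in the mutant and 0.779 and 0.830 in wild type, and with BA at 48.0 and 16.5 in the mutant and 0.762 and 0.907 in wild type. For AT1G64590, an oxidoreductase of the short-chain dehydrogenase type, the values were 0.559 and 0.0776 in the mutant and 1.44 and 1.78 in wild type, and 0.136 and 0.188 in the mutant and 2.08 and 2.79 in wild type with BA. In AT1G80130 and AT1G64590 both DMSO-treated mutant arrays lay on the side of the BA-treated mutant, and in AT5G62280 replicate 2 did and replicate 1 did not.

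**Figure D3:**
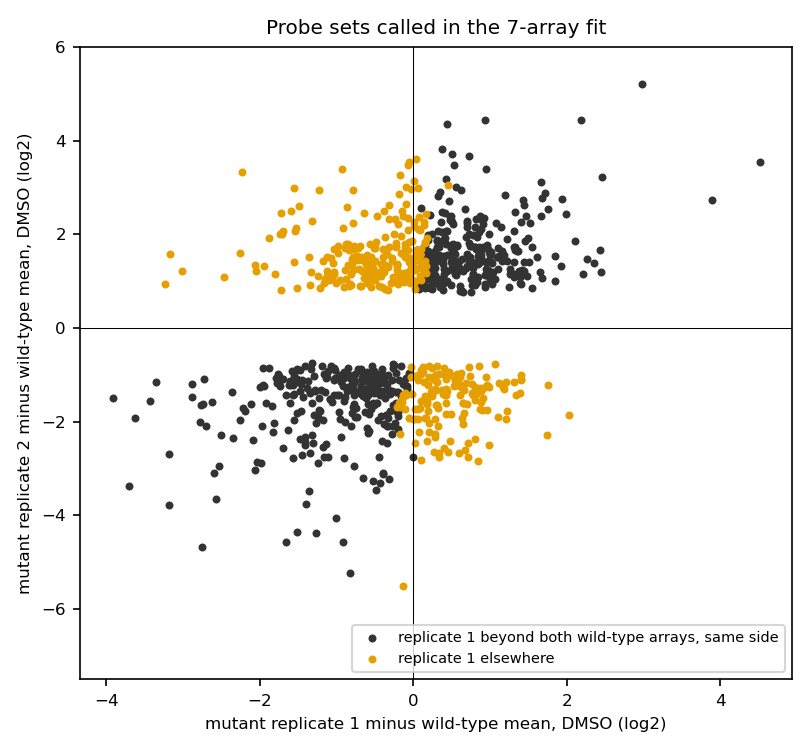
Log2 difference from the wild-type DMSO mean on mutant DMSO replicate 1 (horizontal) and replicate 2 (vertical) for the 961 probe sets passed by the 7-array fit. Black points are those in which replicate 1 lies beyond both wild-type arrays on the called side (299 above, 276 below) and orange points the others. Replicate 2 chose the points, so the empty band around 0 on the vertical axis follows from the selection.

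The BA arrays are other samples of the same genotypes, which the gap under DMSO did not use. Of the 96 probe sets with a gap of at least 1 on the high side, 56 (58.3%) had both BA-treated mutant arrays above both BA-treated wild-type arrays, against 41.1% of all probe sets, and 10 had them below. Of the 135 on the low side, 77 (57.0%) were below wild type under BA, against 18.4% of all, and 29 were above. With 7 arrays limma passed 25 of the 96 as higher under BA (26.0%, against 4.12% of all probe sets) and 47 of the 135 as lower (34.8%, against 3.56%). The error in this fit is pooled over groups and so includes the wild-type DMSO arrays, which also enter the gap. A gap of at least 1 favours probe sets in which those arrays agree. The shares passed by limma are therefore partly fixed by the choice, and nothing is read from them. The median log2 difference under BA was 0.65 for the 96 and -0.74 for the 135, and 0.12 over all probe sets.

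In 51 of the 96 (53.1%) and 72 of the 135 (53.3%), all 4 mutant arrays lay beyond all 4 wild-type arrays. Over every separate probe set, whatever its gap, this held for 36.0% on the high side and 22.0% on the low side. Among the 135, another 44 (32.6%) had the DMSO-treated wild-type arrays above all 6 others, as AT2G27420 did, against 28.2% of the 3139. Among the 96, 16 (16.7%) had the DMSO-treated mutant above all others, as GRX480 did, against 16.5% of the 6693. These patterns were defined after the values had been seen. They include the DMSO arrays, and a wide gap under DMSO by itself helps to place those arrays beyond others. The shares at a gap of at least 1 are therefore partly fixed by the choice.

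The change of the genotype difference with treatment was tested directly. With 8 arrays limma passed 0 probe sets (lowest adjusted p = 0.113, and 1970 at an unadjusted p under 0.05), and with 7 arrays 103. Of the 231 probe sets with a gap of at least 1, 4 high and 19 low ones passed with 7 arrays, against 0.453% of all probe sets. The 231 were chosen for their DMSO difference, which enters this test, so nothing is read from that count. COR15B, GRX480, AT2G27420, AT1G13650 and AT2G15020 were among the 23. For TPS-CIN the genotype difference under DMSO minus that under BA was -0.51 ± 0.50, and for AT2G16005 -0.64 ± 0.31 (SE, 7 arrays, adjusted p = 0.778 and 0.508, limma).

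**Figure D4:**
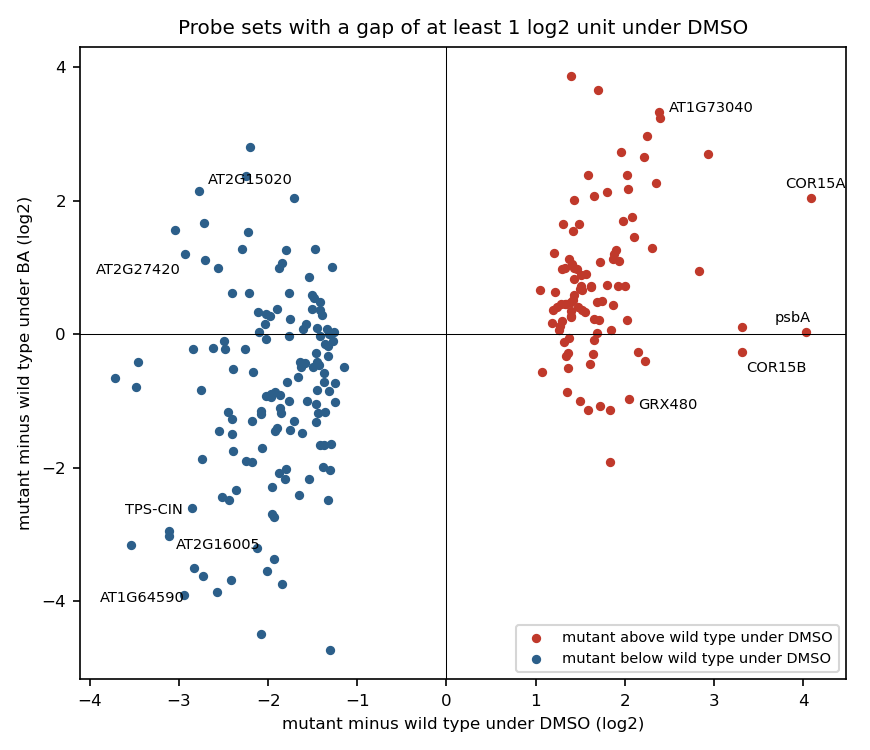
Log2 difference between mutant and wild type under DMSO (horizontal, 2 arrays each) and under BA (vertical, 2 arrays each) for the 96 probe sets with a gap of at least 1 on the high side (red) and the 135 on the low side (blue). AT2G16005 and TPS-CIN are low under both treatments, AT2G27420 and AT2G15020 are low under DMSO and high under BA, and psbA and COR15B lie near 0 under BA.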

How the data were processed

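RNA of 8 samples was hybridised to Affymetrix arrays. The authors' deposited values are linear ratios, read as such from the numbers: 70.1% of probe sets have a median within 0.005 of 1 over the arrays. Which program, scaling and background correction made them is not given in the sources used here, and signal over background was not analysed here. All value columns were mapped by name.

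Tests ran on 22746 probe sets, without the 64 controls. The probe annotation gives 1 gene for 13513, several for 503 and none for 8730. Of the 13513, 13436 were found in RefSeq (TAIR10.1). For the 147 genes with several probe sets, the one with the highest mean was used.

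limma 3.58.1 (R 4.3.3) was fitted to the log2 of the ratio, with 1 mean per group over 8 arrays and again over 7 without mutant DMSO replicate 1. An adjusted p under 0.05 (Benjamini-Hochberg) passed. Both fits were tested on simulated data with 1 spread per probe set, shared by all arrays. In the real data the within-group spread was 0.592 log2 units for mutant DMSO and 0.199 to 0.307 in the other groups. The simulation therefore cannot show how the fits behave with such an unlike mutant array. At 2 arrays a group, their number limits the precision.

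Genes were named by the 15 widest gaps each way, the 5 nearest to passing, up to 4 genes of a list by gap, response regulators, and genes of an earlier reading on which the arrays differ. The comparison and lists were chosen with earlier results of these data known, and the lists were completed after the annotation had been seen. Replicate numbers were not treated as pairs in the main fits. Replicate deviations correlated by -0.174 to 0.124 between groups, which does not show whether the numbers pair samples. Alternatives were other offsets, scalings, array weights, subsets and a replicate block. A search of promoter sequence was not made.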

Additional observations from a re-analysis of the deposited data

Results flagged for a closer look

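The change of the genotype difference with treatment was also read among the 30 genes with the widest gaps, with 7 arrays. These genes were chosen for their DMSO difference, which enters the limma test of this change. A large value is therefore partly fixed by the choice, and no conclusion is drawn from it. The genotype difference under DMSO minus that under BA was 3.00 log2 units for COR15B and 2.64 for GRX480. It was -3.89 for AT2G27420, -2.38 for AT1G13650 and -4.06 for AT2G15020. None of these 5 genes passed with 8 arrays. For AT5G02180 every mutant array lay below wild type under DMSO and above it under BA. The difference was -2.83 with 8 arrays, and the test was not passed (limma adjusted p = 0.283). With 7 arrays the difference was -2.27.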

How the results depend on the processing

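With 8 arrays the 2 probe sets that passed became 1 with an offset of 32, 105 after quantile normalization (12 higher, 93 lower), 0 with the DMSO arrays alone (1689 at an unadjusted p under 0.05) and 0 with the replicate block (2729). Leaving out 1 array at a time gave 0 to 5279: 961 without mutant DMSO replicate 1, 5279 without mutant DMSO replicate 2 and 0 without any of the other 6. With 7 arrays the 961 (530 higher, 431 lower) became 615 after quantile normalization (211 higher, 404 lower), 791 with an offset of 32 (574 higher, 217 lower), 1497 with the DMSO arrays alone and 436 with the replicate block. Leaving out 1 more array gave 13 (wild-type DMSO replicate 2) to 1803 (either mutant BA array), with 48 without wild-type DMSO replicate 1. The 575 calls that mutant DMSO replicate 1 shares became 272 with the block, an alternative chosen after the data had been seen, and 9 to 1049 with 1 more array left out. The genotype difference under BA passed for 32 with 8 arrays, 1747 with 7, 139 after quantile normalization, 0 with the block (2566 unadjusted) and 0 to 1747 with 1 array left out. Of separate probe sets, 3660 of 6693 higher and 2839 of 3139 lower ones remained without dim probe sets. After quantile normalization 53 higher (from 96) and 242 lower ones (from 135) had a gap of at least 1. The cause of these shifts was not tested. The 32 genes named by gap or by lowest p were recomputed 544 times, and 94 values passed. None turned its sign, which the choice of genes with separate arrays fixes. The median difference over all probe sets was 0.0971, or 0.0696 to 0.104 under the other scalings.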
